A study of Mus musculus with 6 samples.

Results

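The 10 genes described here encode AP-1 proteins and other products of the immediate early response: the Fos family genes Fos, Fosb and Fosl2, the Jun family genes Jun, Junb and Jund, and Ier2, Ier3, Ier5 and Zfp36. They were found on the array by symbol, as every probe set whose platform annotation gives one of these symbols alone, which gave 15 probe sets of the 45037 that are not controls. Of the 10 genes, 6 had 1 probe set, Fosl2, Jun and Jund had 2 each, and Ier5 had 3. In both groups compared here, CD4+ GFP+ T cells negative for B220, CD8a and CD11b/c were sorted from the spleens of female NOD mice that carry the transgenic BDC2.5 T cell receptor and a Foxp3GFP reporter, which marks regulatory T cells (Tregs). Treated mice were RAG1o/o, so that they cannot rearrange receptor genes of their own. They received 37.5 µg of the anti-CD3 antibody KT3 intravenously on each of 5 days in a row from 17 days of age. At the sort they were 28 or 29 days old, which the labels give as 11 or 12 days after treatment. By these ages that count runs from the first injection, so the last injection lay nearer to the sort. Untreated mice were RAG1+/o, had no injections and were 28 or 29 days old as well. Each group held 3 arrays with 1 mouse per array. The antibody and the RAG1 genotype changed together, so their parts in any difference cannot be told apart.

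AP-1 is a pair of basic leucine zipper proteins, usually one of the Fos and one of the Jun family, that binds DNA as a dimer. In T cells it is made and activated within minutes of receptor and CD28 signals through MAP kinases, and it joins NFAT at the control regions of cytokine genes. In Tregs FOXP3 can bind NFAT in its place. Immediate early genes are those whose transcription rises after a signal without new protein synthesis, and several of their products, tristetraprolin (Zfp36) among them, shut the response down again.

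To show the sequences from which these genes are read, the 120 bases before the annotated start of 4 members follow, 5′ to 3′ on the gene's strand, from RefSeq with build GRCm38.p6. Fos and Jun give AP-1 its best known pair, and Jun, Ier3 and Ier5 are among the genes with a probe set whose groups did not overlap. Capitals mark matches on either strand to the motifs spelled out after them.
Fos, chr12:85473770-85473889, plus strand: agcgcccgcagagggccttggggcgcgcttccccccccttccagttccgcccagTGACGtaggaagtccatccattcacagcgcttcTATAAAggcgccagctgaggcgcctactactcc
Jun, chr4:95052223-95052342, minus strand: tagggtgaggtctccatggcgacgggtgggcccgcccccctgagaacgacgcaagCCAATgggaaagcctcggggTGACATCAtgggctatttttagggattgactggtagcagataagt
Ier3, chr17:35821593-35821712, plus strand: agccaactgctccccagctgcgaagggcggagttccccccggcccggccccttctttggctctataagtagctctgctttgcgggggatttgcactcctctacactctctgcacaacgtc
Ier5, chr1:155099637-155099756, minus strand: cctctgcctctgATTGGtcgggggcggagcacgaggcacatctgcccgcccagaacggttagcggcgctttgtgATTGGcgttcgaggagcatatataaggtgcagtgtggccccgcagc
A promoter was found for 9 of the 10 genes, all but Ier2, and motifs were searched on both strands in the 250 bases before each start. The Jun window held TGACATCA, a match to TGACNTCA, at -45 to -38, and this motif was present in 7.49% of all 32851 promoters. The core TGACG of the cyclic AMP response element, which also lies inside TGACNTCA when N is G, was present in Fos, Fosb and Junb and in 17.8% of all promoters. TATAAA was present in Fos alone of the 9 (12.4% of all), and CCAAT in Jun, Junb, Ier3 and Ier5 (33.8%), the Ier3 matches lying further upstream than the stretch shown. The CArG box of serum response factor had 1 match, in Zfp36 (1.47% of all). The AP-1 site TGANTCA had none in these windows, against 6.75% of all promoters.

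Array medians lay between 85.3 and 92.4 on the linear intensity scale. The sorted cells carried their defining transcripts: on the log2 scale Foxp3 measured 11.43 to 12.44 in treated and 9.95 to 11.07 in untreated samples, and Cd3e 11.97 to 12.16 against 11.62 to 11.82. Cd4 measured 9.77 to 10.41 in treated and 9.10 to 10.01 in untreated samples by probe set 1419696_at. By its other probe set it measured 5.62 to 6.06 against 5.40 to 6.24, and the groups overlapped in both. Untreated replicate 3 had the lowest means of myeloid, erythroid and NK markers, while in B cell markers it lay near the treated arrays and untreated replicates 1 and 2 were high. Treated replicates 1, 2 and 3 had mean log2 intensities of 9.69, 8.62 and 9.55 over 40 probe sets of 30 myeloid genes, and untreated replicates 1, 2 and 3 had 9.25, 9.22 and 6.91. For 38 probe sets of 18 B cell genes the mean was 6.21, 6.22 and 6.07 in treated, and 8.32, 8.36 and 6.46 in untreated samples. Lyz2 of macrophages and neutrophils measured 11.93 to 13.42 in treated samples and 12.68, 12.77 and 8.01 in untreated replicates 1, 2 and 3, and Ms4a1 of B cells 6.30 to 6.66 in treated samples and 12.95, 12.93 and 8.97 in the untreated ones. Erythroid and platelet markers (17 probe sets of 14 genes) averaged 7.89 to 8.55 in treated and 6.61 to 8.61 in untreated samples, lowest again in untreated replicate 3, and NK and cytotoxic markers (22 probe sets of 16 genes) 7.20 to 7.45 against 6.76 to 7.75. Of T cell and Treg markers, 17 probe sets of 12 genes averaged 10.47 to 10.90 in treated and 9.98 to 10.99 in untreated samples. In sorted bulk samples, fewer cells of a type and less RNA per cell cannot be told apart from such values alone. For B cells the design differs too: the treated mice, being RAG1o/o, cannot rearrange the receptor genes of B cells.

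No member differed between treated and untreated Tregs past the test. With limma over all 45037 probe sets and Benjamini-Hochberg adjustment, the adjusted p values of the 15 member probe sets ran from 0.961 to 0.994. In the same fit 0% of all probe sets passed, with 0.129 as the smallest adjusted p. At an unadjusted p under 0.05 there were 0 member probe sets with higher values in treated samples, where all probe sets gave 1.53%, and 1 with lower values, where all gave 3%. The 3 treated values lay wholly above the 3 untreated ones in 2 member probe sets, of Ier3 and Fosl2 (5.14% of all probe sets), and wholly below in 2, of Ier5 and Jun (5.02% of all). Differences, given throughout as treated minus untreated on the log2 scale, ran from −0.61 to +0.62, 8 above 0 and 7 below, with a median of +0.10 where all probe sets had +0.05. The 95% intervals of 14 of the 15 included 0, and 9 of the 15 intervals lay wholly within 1 log2 unit of it. For the other 6, a change of 2-fold or more is inside the interval.

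**Figure D1:**
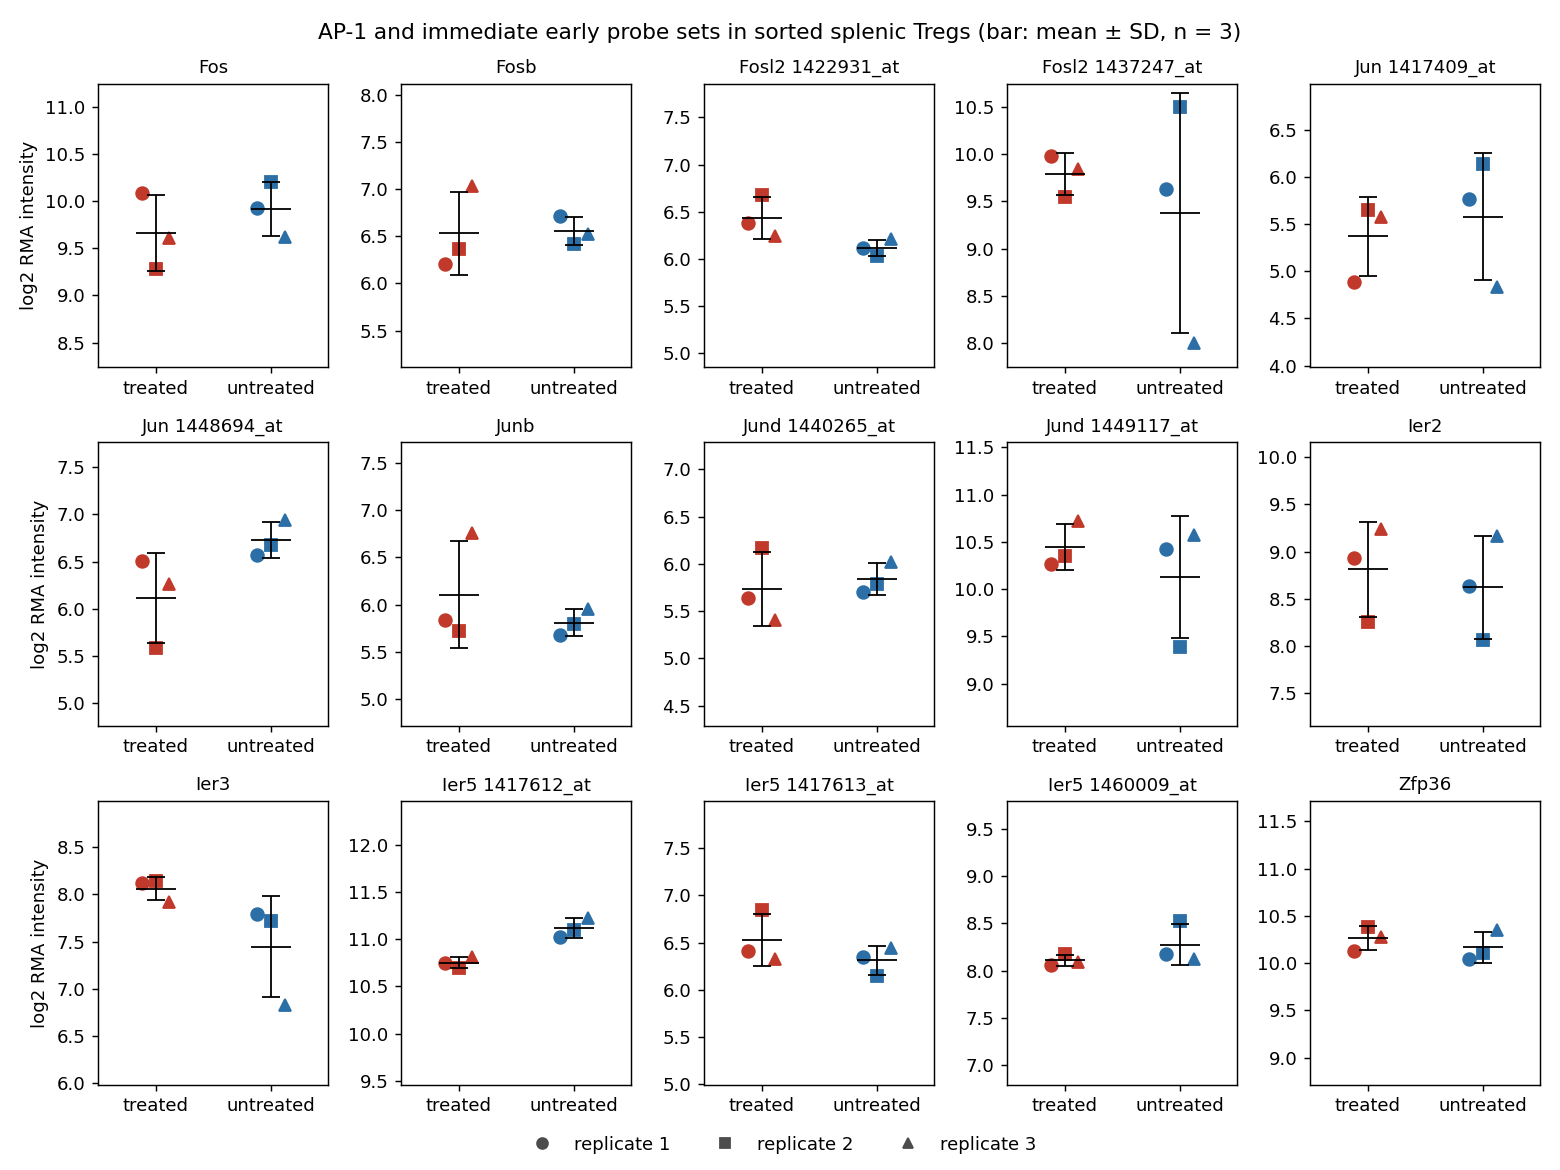
Log2 RMA intensity of each of the 15 member probe sets by array, with treated Tregs (red) left of untreated Tregs (blue), 1 panel per probe set and every panel spanning 3 log2 units. Symbols give the replicate and bars the mean ± SD (n = 3). The groups are separate in Fosl2 1422931_at, Jun 1448694_at, Ier3 and Ier5 1417612_at, and untreated replicate 3 lies far below the rest in Fosl2 1437247_at.

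Among the Fos family, Fos itself, whose protein is the classical partner of Jun, measured 10.08, 9.29 and 9.61 in treated replicates 1, 2 and 3, against 9.92, 10.20 and 9.62 in untreated replicates 1, 2 and 3. The groups overlapped, and the lowest value was that of treated replicate 2. The difference was −0.26 (95% interval −0.86 to 0.35), and with array weights it was +0.0070. Fosb, a close relative of Fos that also pairs with Jun proteins, measured 6.20, 6.37 and 7.03 in treated against 6.71, 6.42 and 6.52 in untreated samples. Here the treated values spread on both sides of the untreated ones, with a difference of −0.02 (−0.59 to 0.56) whose sign turned under several settings. Brackets after each further difference hold its 95% interval.

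Fosl2 encodes Fra-2, a Fos family member without the transactivating end of Fos. Its probe set 1422931_at measured 6.38, 6.68 and 6.24 in treated against 6.11, 6.04 and 6.21 in untreated samples. All treated values were above all untreated ones, though treated replicate 3 and untreated replicate 3 were nearly equal, and the difference was +0.31 (−0.10 to 0.72, limma adjusted p = 0.961). This probe set is a dim one, with a mean below the median over all probe sets. Probe set 1437247_at measured 9.98, 9.54 and 9.84 in treated against 9.63, 10.50 and 8.0 in untreated samples. The untreated samples alone spanned 2.50 log2 units, a within-group SD larger than that of 97.4% of all probe sets, and the treated values lay between them. Its difference of +0.42 (−0.94 to 1.77) turned to −0.27 without untreated replicate 3, the array with the lowest myeloid, erythroid and NK marker means. The part of these other cells in the Fosl2 values was not tested.

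Of the Jun family, Jun itself, the strongest activator among them, had the lowest difference of all members. Its probe set 1448694_at measured 6.51, 5.59 and 6.26 in treated against 6.57, 6.67 and 6.93 in untreated samples. All treated values were below all untreated ones, but treated replicate 1 and untreated replicate 1 lay close together and treated replicate 2 lay far below. Jun was 1.52-fold lower in treated Tregs by this probe set (difference −0.61, −1.22 to 0.01, adjusted p = 0.961 by limma), and array weights gave −0.27, without treated replicate 2 −0.34. The second probe set, 1417409_at, measured 4.89, 5.64 and 5.58 in treated and 5.76, 6.14 and 4.84 in untreated samples, so the groups overlapped, and it differed by −0.21 (−1.08 to 0.66). Both Jun probe sets have means below the median over all probe sets.

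Junb, whose protein is needed for effector Tregs to take on their programme in mice, measured 5.83, 5.72 and 6.76 in treated and 5.68, 5.80 and 5.95 in untreated samples. Treated replicate 3 was high and the other 5 values lay close together. The difference of +0.30 (−0.39 to 0.98) therefore rested on that array and was −0.031 without it. The Junb probe set is a dim one too, with a mean below the median over all probe sets. Jund, known for restraining proliferation in several cell types, had a probe set, 1449117_at, at 10.27, 10.35 and 10.72 in treated and 10.43, 9.39 and 10.57 in untreated samples. The untreated group held the lowest value, that of replicate 2, without which the difference of +0.32 (−0.46 to 1.09) became −0.054. The dim Jund probe set 1440265_at measured 5.40 to 6.17 in treated and 5.70 to 6.02 in untreated samples and differed by −0.10 (−0.65 to 0.45).

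Ier3, which encodes a stress-induced regulator of cell death also called IEX-1, had the highest difference of the members. It measured 8.12, 8.15 and 7.92 in treated replicates 1, 2 and 3, against 7.79, 7.71 and 6.83 in untreated replicates 1, 2 and 3. All treated values were above all untreated ones, narrowly so for treated replicate 3 and untreated replicate 1, and untreated replicate 3 was by far the lowest. Ier3 was 1.53-fold higher in treated Tregs (difference +0.62, −0.03 to 1.27, limma adjusted p = 0.961). Without untreated replicate 3 it was +0.31. The labels' array file numbers fall into 2 runs, the low one holding replicates 1 and 2 and the high one replicate 3 of each group, and within these runs the Ier3 difference was +0.38 in the low and +1.09 in the high run. With the run as a block the unadjusted p was 0.0215 and the adjusted p 0.865 (limma). Myeloid marker means were 8.62 to 9.69 in treated and 6.91 to 9.25 in untreated samples, and their part in the Ier3 difference was not tested.

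**Figure D2:**
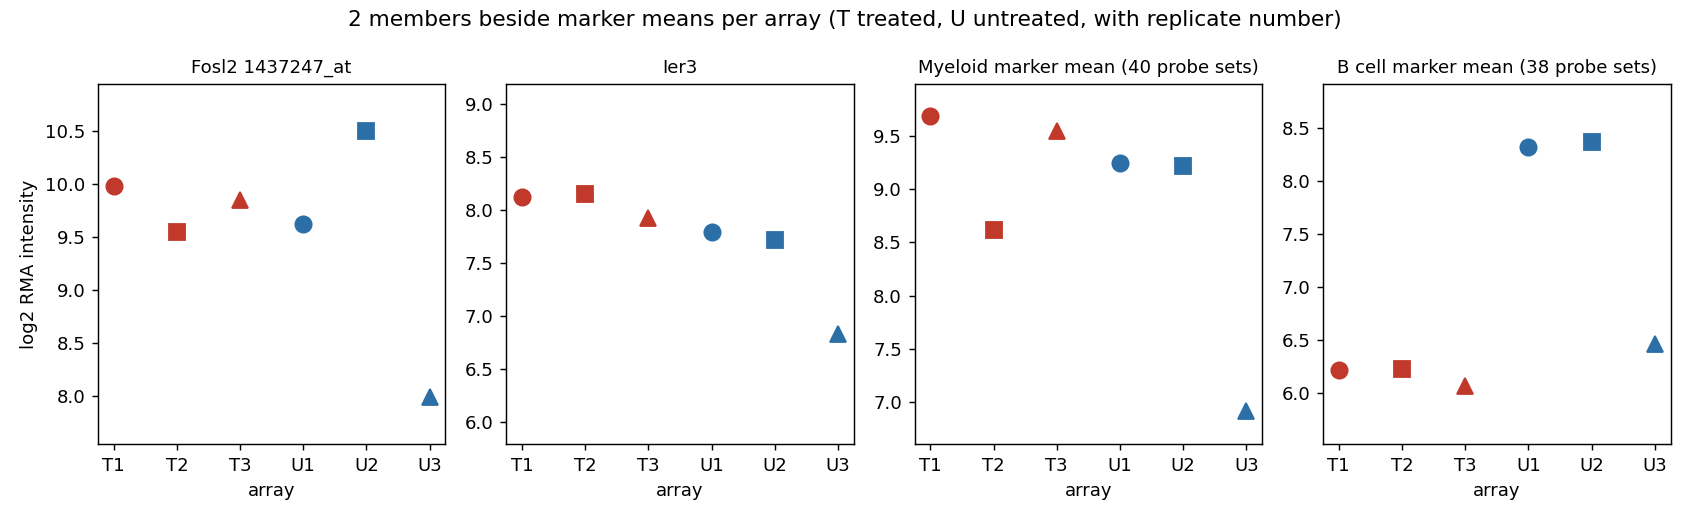
Log2 RMA intensity per array of Fosl2 1437247_at and Ier3, beside the mean over 40 myeloid and 38 B cell marker probe sets, for treated (T, red) and untreated (U, blue) replicates 1 to 3, each panel spanning 3.4 log2 units. Untreated replicate 3 has the lowest value of both members and of the myeloid mean, at 8.0, 6.83 and 6.91, while in the B cell mean it lies near the treated arrays. Of all member probe sets, 3 have their lowest value in that array. Treated replicate 2 has the highest Ier3 value, 8.15, and the lowest myeloid mean of the treated arrays, 8.62.

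Ier5, whose protein assists the heat shock factor HSF1, had the member probe set with the smallest unadjusted p. Probe set 1417612_at measured 10.75, 10.69 and 10.81 in treated against 11.02, 11.10 and 11.23 in untreated samples. The groups did not overlap and both were tight, with SDs of 0.06 in treated and 0.10 in untreated samples and a within-group SD larger than that of only 2.99% of all probe sets. The difference was −0.37 (−0.72 to −0.01), 1.29-fold lower in treated Tregs, with an unadjusted p of 0.0441 and an adjusted p of 0.961 by limma. Within the low run of array file numbers the difference was −0.34 and within the high run −0.42. The unadjusted p did not stay below 0.05 under several other limma settings: it was 0.0579 with the run as a block, 0.114 with age as a covariate, 0.123 after quantile normalization, 0.129 with trended and robust moderation and 0.0771 without dim probe sets. With an array left out it was 0.0489 without treated replicate 2 and 0.0644 to 0.146 without each of the other 5. The other 2 Ier5 probe sets did not repeat the separation: 1460009_at measured 8.06 to 8.18 in treated and 8.13 to 8.53 in untreated samples (−0.17, −0.57 to 0.24), and the dim 1417613_at 6.33 to 6.85 against 6.15 to 6.45 (+0.21, −0.25 to 0.68). The mean of the 3 differed by −0.11.

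Ier2 encodes a nuclear protein with an N-terminal part related to that of Ier5. It measured 8.93, 8.26 and 9.24 in treated and 8.63, 8.07 and 9.16 in untreated samples, and replicate 2 was the lowest and replicate 3 the highest in both groups. The difference of +0.19 (−0.64 to 1.02) was smaller than the SD within either group, 0.50 in treated and 0.55 in untreated samples. Zfp36, whose product tristetraprolin binds AU-rich elements in cytokine and immediate early mRNAs and speeds their decay, measured 10.13, 10.39 and 10.28 in treated and 10.04, 10.11 and 10.35 in untreated samples. The groups overlapped within a narrow range, and the interval of its difference, +0.10 (−0.30 to 0.49), excludes a change of 1 log2 unit in either direction.

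**Figure D3:**
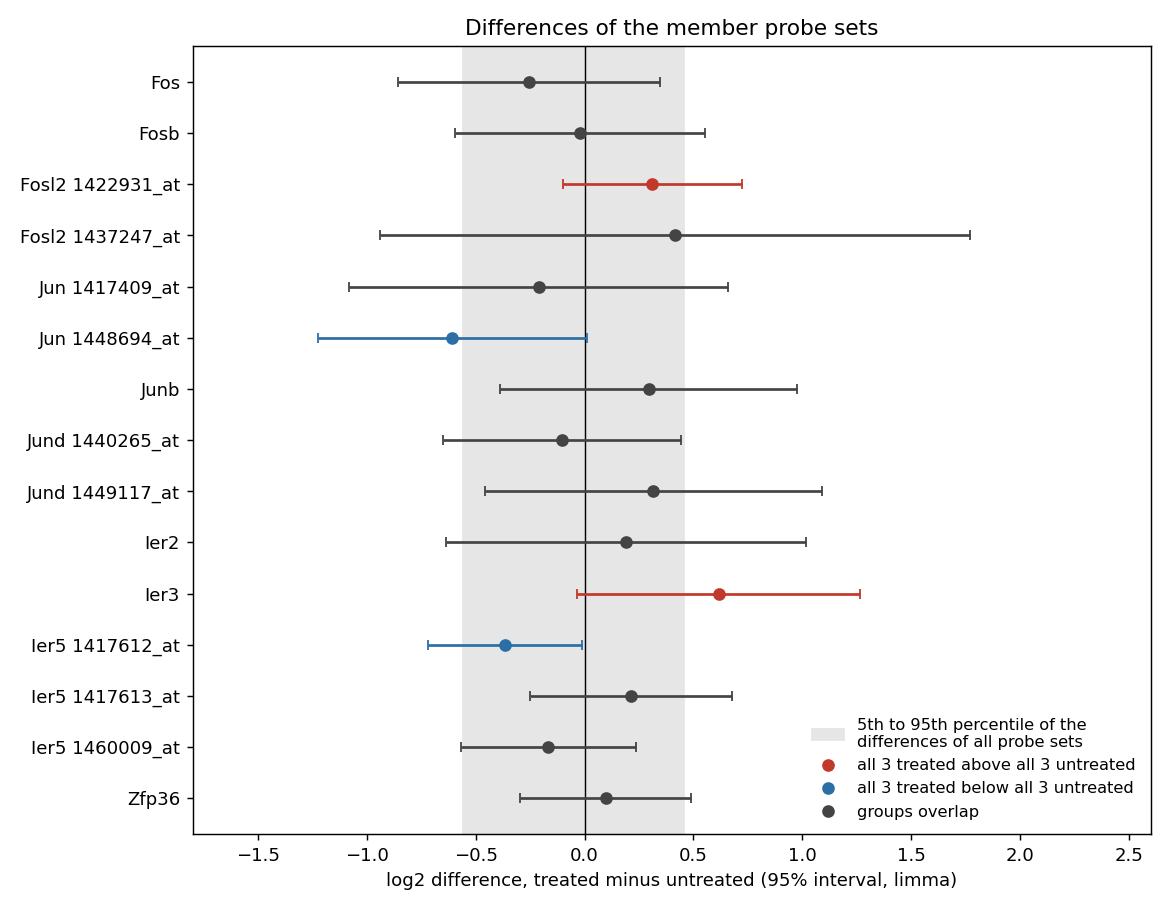
Difference of each member probe set, treated minus untreated, on the log2 scale with its 95% interval from limma, over a grey band for the 5th to 95th percentile of the differences of all probe sets (−0.56 to 0.46). Red and blue mark the 2 probe sets each whose treated values lie wholly above or below the untreated ones, and only the interval of Ier5 1417612_at excludes 0, at −0.72 to −0.01.

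No single array was the lowest or the highest for most of the members. The lowest value of a probe set fell on treated replicates 1, 2 and 3 in 2, 3 and 1 cases (13.4%, 19.7% and 20.8% of all probe sets). It fell on untreated replicates 1, 2 and 3 in 2, 4 and 3 cases (15.9%, 18.2% and 12.0% of all). The highest value fell on treated replicates 2 and 3 in 5 and 4 cases (37.4% and 17.4% of all). On untreated replicates 2 and 3 it fell in 4 and 2 cases (15.6% and 13.5% of all). Replicate 1 held it in 0 cases in either group, against 8.58% of all probe sets in treated and 7.50% in untreated samples. Treated replicate 2 thus held the highest value most often over all probe sets as well. The mean over the 15 probe sets was 7.88, 7.86 and 8.01 in treated and 7.90, 7.91 and 7.79 in untreated samples, so the groups overlapped in it. Within-group SDs of the 15 ran from 0.09 for Ier5 1417612_at to 0.91 for Fosl2 1437247_at.

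The other transcription factors that share or compete for AP-1 sites gave no call either. Of 43 probe sets for 17 further bZIP genes, 0 passed in either direction, 1 was higher and 2 were lower with an unadjusted p below 0.05, and the median difference was +0.01. Over all probe sets 1.53% were higher and 3% lower at that p, which holds as background for the lists that follow too. Batf, an AP-1 factor needed for effector Tregs in tissues, measured 9.06, 9.40 and 10.17 in treated and 8.90, 8.54 and 9.32 in untreated samples (+0.62, −0.15 to 1.40). Its groups overlapped. The small Maf genes Maff and Mafk, whose proteins lack an activating domain, differed by +0.51 (0.01 to 1.01) and +0.38 (−0.01 to 0.78), and the treated values of Mafk were all above the untreated ones. Bach2, which represses AP-1 targets in T cells and is also expressed in B cells, had all treated values below all untreated ones in each of 3 probe sets, with differences of −2.12, −1.59 and −0.39 and adjusted p values of 0.961 (limma). Its probe set 1437667_a_at measured 8.32, 8.12 and 7.35 in treated and 9.79, 10.24 and 8.53 in untreated samples, where B cell marker means were 6.07 to 6.22 in treated and 8.32, 8.36 and 6.46 in untreated samples. The part of B cell RNA in it was not tested.

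Upstream of AP-1, 49 probe sets for 17 MAP kinase pathway and serum response factor genes had a median difference of +0.03, with 0 called, 0 higher and 1 lower with an unadjusted p below 0.05. Map2k1, the kinase MEK1 that activates ERK, measured 10.32, 10.34 and 10.16 in treated and 10.61, 11.18 and 10.80 in untreated samples, wholly below them (−0.59, −1.05 to −0.13). Mrtfa, a cofactor of serum response factor, differed by +1.00 (−0.23 to 2.22), with treated replicate 3 at 10.59 and the other treated values at 8.64 and 8.63. Elk4, a transcription factor that acts with serum response factor, differed by −0.35 in 1 probe set and by +0.05 to +0.08 in its other 3.

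Further immediate early genes went both ways. Of 78 probe sets for 33 genes, 0 passed, and the median was +0.11, beside the +0.10 of the 10 member genes. With an unadjusted p below 0.05, 7 were higher and 5 were lower, where all probe sets gave 1.53% and 3%. Several of these genes have more than 1 probe set, so the counts are not of independent genes. Nr4a1, an orphan nuclear receptor gene induced by T cell receptor signals, measured 10.37, 10.18 and 10.25 in treated and 9.61, 9.35 and 9.43 in untreated samples (+0.81, 0.44 to 1.18, limma adjusted p = 0.882). Its groups were well apart, unlike those of Fos. The antiproliferative genes Btg1 and Btg2 pointed the other way. Btg2 measured 11.16, 10.79 and 10.97 in treated and 11.63, 11.54 and 11.49 in untreated samples in probe set 1448272_at (−0.58, −0.97 to −0.19), and its other one differed by −0.29 (−1.0 to 0.42). For Btg1 the 3 probe sets differed by −1.10, −0.58 and −0.13, the groups being separate in the first alone.

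Among proteins that bind AU-rich elements like tristetraprolin does, 31 probe sets of 9 genes had a median of −0.10, with 0 called, 0 higher and 2 lower with an unadjusted p below 0.05. The paralogue Zfp36l1 differed by −0.48 (−1.15 to 0.18) and −0.15 (−0.80 to 0.49), and Zfp36l2 by +0.30, +0.19 and −0.10, each with groups that overlapped. The stabilising factor gene Elavl1 (HuR) differed by −1.13 (−2.02 to −0.24) in 1 of 6 probe sets, 1431037_a_at, where the treated values of 7.30, 7.03 and 7.43 stood against 7.47, 8.82 and 8.84 in untreated samples. The other 5 ran from −0.39 to +0.40. Tia1, a translational silencer, differed by −0.69 (−1.30 to −0.08) in 1 of 6 and by −0.56 to +0.11 in the rest.

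Cytokine genes that AP-1 activates or tristetraprolin restrains showed no call. Of 18 probe sets for 16 genes, 0 were past the unadjusted p in either direction, and the median difference was +0.09. The smallest p values belonged to Lif (+0.39, −0.13 to 0.90), Il10 (+0.38, −0.13 to 0.88), the gene of an inhibitory cytokine made by Tregs, and the chemokine gene Xcl1 (+0.31, −0.16 to 0.78), all with intervals that include 0. The other Lif probe set differed by +0.17 (−0.41 to 0.75). Those of Lif and Xcl1 are dim, and the means of the 18 probe sets per array were low, at 5.97 to 6.40. The heat shock genes, many of them targets of the factor that IER5 assists, had 8 of 28 probe sets above 0 and 20 below. Of all probe sets 58.0% lay above 0. The median of the heat shock probe sets was −0.19, with 0 called, 0 higher and 3 lower with an unadjusted p below 0.05. Hspa1b differed by +0.05, +0.43 and +0.34 and Hspa1a by +0.20, all above 0. The smallest p values of the list belonged to Dnaja1, Hsp90aa1 and Hspd1. Dnaja1, a co-chaperone gene, differed by −0.80 and −0.77 in 2 probe sets with separate groups and by −0.13 in the other. Hsp90aa1 differed by −0.63 (−1.22 to −0.04) in 1 of 5 probe sets, and by −0.52 to +0.12 in the others, and Hspd1, a mitochondrial chaperonin gene, by −0.64 (−1.33 to 0.05). List means of the heat shock probe sets were 9.20, 9.36 and 9.42 in treated and 9.54, 9.43 and 9.64 in untreated samples, all treated means lying below the untreated ones by little. The part of Ier5 in the heat shock values was not tested.

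**Figure D4:**
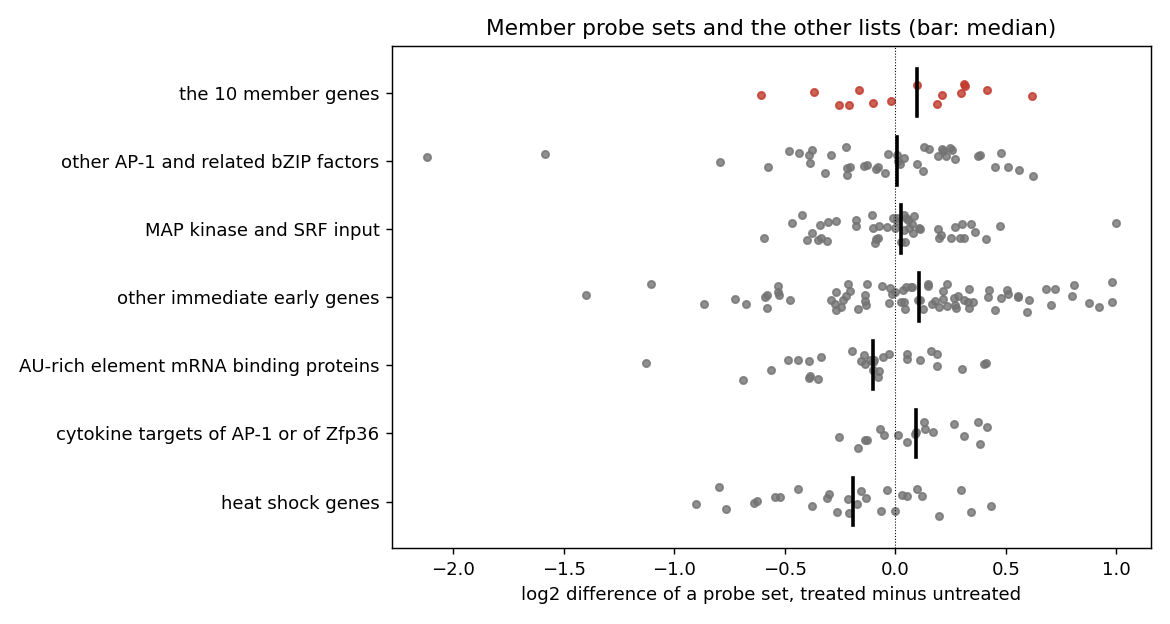
Difference of each probe set, treated minus untreated, on the log2 scale for the 10 member genes (red, 15 probe sets) and 6 other lists (grey), with a bar at each median. Medians run from −0.19 for heat shock genes to +0.11 for other immediate early genes, and the lowest 2 values among bZIP factors, −2.12 and −1.59, are Bach2.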

How the data were processed

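Sorted Treg RNA was measured on 6 Affymetrix M430v2 arrays after a double linear amplification, per the labels' protocols. The authors made the deposited intensity values with RMA in GenePattern, per the series' design text, and their range shows a linear scale. The version of RMA is not given in these sources. RMA makes arrays more alike, so a change common to most transcripts could not be seen, and the table has no detection calls. No depth exists for arrays, so their number limits the precision. Values from 5.47 to 29584.9 were taken to log2 with no further normalization. After 64 control probe sets were left out, limma 3.58.1 (R 4.3.3, lmFit and eBayes) compared 3 treated with 3 untreated arrays over 45037 probe sets, each on its own, with Benjamini-Hochberg adjustment and a threshold of 0.05. The fit was tested on simulated data, where such a design calls few genes after adjustment. Symbols were those of the platform annotation, brought up to date by gene identifier for 34741 of 34945 probe sets with 1 symbol. A further 932 had several symbols and 9160 none, and these were not named. With 1 mouse per array, the p values rest on the spread between arrays, moderated by limma over all probe sets. That spread holds differences between mice together with those of the sort, the amplification and the run of array file numbers. Deviations of same-numbered replicates from their group means had correlations of 0.451, 0.0826 and 0.0882 over probe sets, all above 0. Those of replicates with unlike numbers ran from −0.377 to 0.166. No label says what a replicate number marks, so the replicates were not paired in the reported fit, and the number was a block among the alternatives. Members, lists and tests were chosen with earlier results of these data known. All members were to be named, and of each other list up to 3 genes with the smallest p, plus Batf, Zfp36l1, Zfp36l2 and a few markers. A dim probe set has a mean log2 intensity below 6.46, the median over all. Alternatives covered the replicate number, age and run of array file numbers, dim probe sets, probe sets per gene, quantile normalization, median centring, the moderation, array weights, a pseudocount of 16, linear group means and each array left out. Python 3.11.15 and matplotlib 3.10.9 made the figures.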

Additional observations from a re-analysis of the deposited data

How the results depend on the processing

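No member probe set reached an adjusted p of 0.05 under any of 20 alternatives, where the lowest was 0.735. Of 284 recomputed member differences 264 kept their direction. Many of these could not change: the 2 blocks, the moderation, leaving out dim probe sets and taking 1 probe set per gene leave a difference as it is. The mean per gene also leaves genes with 1 probe set as they are. The differences of Ier3, Ier5 1417612_at, Ier5 1460009_at, Jun 1448694_at and Fosl2 1422931_at kept their direction in each setting that could give them. The cause of the changes below was not tested. Fosb turned with age as a covariate (+0.065), in the high run of array file numbers (+0.50) and with linear group means (+0.021), and ran from −0.27 to +0.15 with an array left out. Fos turned with array weights (+0.0070), Fosl2 1437247_at in the low run (−0.30), Jun 1417409_at in the high run (+0.74), Jund 1440265_at in the low run (+0.16), and Ier5 1417613_at (−0.12) and Zfp36 (−0.075) in the high run. With an array left out, Fosl2 1437247_at ran from −0.27 (without untreated replicate 3) to +0.98, Jun 1417409_at from −0.58 to +0.070 (without untreated replicate 2), Junb from −0.031 (without treated replicate 3) to +0.49, Jund 1440265_at from −0.32 to +0.066 (without treated replicate 3), Jund 1449117_at from −0.054 (without untreated replicate 2) to +0.54 and Ier2 from −0.087 (without untreated replicate 2) to +0.47.

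The count of 1 lower member probe set with an unadjusted p below 0.05 was 0 with age, with the run as a block, in the low run, without dim probe sets, with probe sets averaged per gene and after quantile normalization, and 0 to 1 with an array left out. It is Ier5 1417612_at in the reported fit, but Jun 1448694_at with the replicate block (limma p 0.0448, Ier5 0.0685), with trended and robust moderation (0.0443, Ier5 0.129) and without treated replicate 1 (0.0232, Ier5 0.0943). The count of higher ones, 0, was 1, of Ier3, with the replicate block and with the run as a block, and 0 to 1 with an array left out. Member probe sets with separate groups numbered 2 higher and 2 lower (5.14% and 5.02% of all probe sets). There were 4 and 4 in the low run (20.7% and 15.2%), 1 and 1 of 9 without dim ones (4.81% and 7.03%), 1 and 2 of 10 with 1 probe set per gene (5.61% and 5.24%), 1 and 0 of 10 with the mean per gene (5.7% and 5.27%) and 2 and 1 after quantile normalization (5.06% and 5.58%). With an array left out there were 2 to 3 higher (7.7% to 12.3%) and 2 to 4 lower (7.51% to 12%), among them 3 and 3 without untreated replicate 3 (11.9% and 10.6%) and 2 and 4 without treated replicate 2 (9.42% and 12%). The median difference of +0.10 was +0.19 after quantile normalization and ran from −0.041 (without untreated replicate 2) to +0.15 with an array left out, being −0.026 without treated replicate 3 and −0.0089 without untreated replicate 3. Over all probe sets, where 0 were called, the low run gave 1 higher and 33 lower, array weights 1 and 4 and leaving out an array 0 to 2 and 0 to 57, the 2 and 57 being those without untreated replicate 3. The high run holds 1 array per group and so gives differences with no test. No adjusted p passed with the replicate block.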
